A study of Mus musculus with 9 samples.

Results

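The homeostatic genes of microglia described here are *P2ry12*, *P2ry13*, *Gpr34*, *Cx3cr1*, *Tmem119*, *Siglech*, *Selplg*, *Sall1* and *Olfml3*, 9 of the 12580 gene symbols that every file of the study lists. They were taken by symbol, whatever their measured values, and all 9 are listed for each of the 9 samples. Mouse cells were captured by Drop-seq, in which every transcript caught on a barcoded bead is counted once through its unique molecular identifier (UMI). The samples are 1 brain of an athymic nude mouse without tumor (Nu-NB) and 8 patient-derived orthotopic xenografts (PDOXs), which are human glioblastomas (GBM) grown from organoids in the brains of female athymic nude mice, animals that have few T cells but still have B and NK cells. The 7 untreated PDOXs are P3, P8, P13, T16, T101, T192 and T233, of which T192 and T233 come from tumors of 1 patient, and P3TMZ is a P3 PDOX of a mouse that was given temozolomide (TMZ), an alkylating chemotherapy, where the control mice of that experiment received the vehicle. Each PDOX is 1 sample of 1 tumor model, so the spread between PDOXs holds the differences between models and between animals. FACS was used to purify the cells of Nu-NB and P8, and MACS those of the other PDOXs, and the normal state of the brain was measured once.

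Microglia are the resident macrophages of the brain. In the healthy brain they survey the tissue with moving processes, and the genes described here are known as marks of that surveying state, which are commonly lower in microglia activated by injury, degeneration or tumors. P2RY12 and P2RY13 are receptors for extracellular nucleotides, and P2RY12 guides processes towards damaged cells. GPR34 is a receptor for a lysophospholipid, and CX3CR1 is the receptor of fractalkine, a chemokine that neurons carry on their surface. TMEM119 is a membrane protein used to tell microglia from other macrophages, SIGLECH is a lectin that plasmacytoid dendritic cells also carry, and SELPLG binds selectins and is found on many leukocytes. SALL1 is a zinc finger transcription factor that maintains microglial identity, and OLFML3 is a secreted glycoprotein.

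The genes lie on 6 chromosomes of GRCm38, the build named in the submitters' processing notes. *P2ry12* (ENSMUSG00000036353, chromosome 3 from 59216272 to 59262871) and *P2ry13* (ENSMUSG00000036362, chromosome 3 from 59207892 to 59210882) lie on the same strand, 5.39 kb apart, and both lie inside *Med12l*, a protein-coding gene on the opposite strand. *Tmem119* (ENSMUSG00000054675, chromosome 5 from 113793729 to 113800516) and *Selplg* (ENSMUSG00000048163, chromosome 5 from 113818536 to 113832644) are also neighbors on 1 strand, 18.0 kb apart. *Gpr34* (ENSMUSG00000040229, chromosome X from 13632089 to 13640858) overlaps *Cask* on the opposite strand. The annotated span of *Cx3cr1* (ENSMUSG00000052336, chromosome 9 from 119901616 to 120069879) overlaps 9 other genes, among them *Gorasp1*, *Csrnp1* and *Xirp1* on its own strand, and reads of overlapping genes may have been counted for either. *Siglech* (ENSMUSG00000051504, chromosome 7 from 55768178 to 55778925), *Sall1* (ENSMUSG00000031665, chromosome 8 from 89027235 to 89044162) and *Olfml3* (ENSMUSG00000027848, chromosome 3 from 103722222 to 103738001) overlap no other gene.

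PU.1, a transcription factor of the ETS family that myeloid cells need, binds purine-rich sites with a GGAA core, and the promoters of 4 members are shown for this reason, 2 receptors that are neighbors, the fractalkine receptor and the lectin. Each runs from 250 bases before to 50 bases after the RefSeq start site (GRCm38.p6), and capitals mark GAGGAA or GGAAGT on either strand, so that TTCCTC and ACTTCC are their reverse complements.
P2ry12, chr3:59262936-59263235, minus strand: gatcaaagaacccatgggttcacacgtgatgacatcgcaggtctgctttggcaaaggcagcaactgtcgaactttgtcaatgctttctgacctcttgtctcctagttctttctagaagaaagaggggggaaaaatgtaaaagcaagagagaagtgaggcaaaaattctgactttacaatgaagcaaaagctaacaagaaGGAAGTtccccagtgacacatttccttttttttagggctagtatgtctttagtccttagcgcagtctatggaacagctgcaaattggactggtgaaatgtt
P2ry13, chr3:59210833-59211132, minus strand: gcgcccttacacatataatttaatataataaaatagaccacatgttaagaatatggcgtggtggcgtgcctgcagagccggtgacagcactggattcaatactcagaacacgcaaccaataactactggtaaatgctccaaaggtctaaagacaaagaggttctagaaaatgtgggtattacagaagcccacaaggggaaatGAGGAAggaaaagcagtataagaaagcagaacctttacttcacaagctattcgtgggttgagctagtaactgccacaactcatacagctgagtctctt
Cx3cr1, chr9:120068247-120068546, minus strand: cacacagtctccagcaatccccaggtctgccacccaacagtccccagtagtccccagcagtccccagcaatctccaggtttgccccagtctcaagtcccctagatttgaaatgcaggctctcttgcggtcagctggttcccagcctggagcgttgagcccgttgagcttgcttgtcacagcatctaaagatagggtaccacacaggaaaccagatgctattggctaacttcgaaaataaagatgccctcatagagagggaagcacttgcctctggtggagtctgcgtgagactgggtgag
Siglech, chr7:55767934-55768233, plus strand: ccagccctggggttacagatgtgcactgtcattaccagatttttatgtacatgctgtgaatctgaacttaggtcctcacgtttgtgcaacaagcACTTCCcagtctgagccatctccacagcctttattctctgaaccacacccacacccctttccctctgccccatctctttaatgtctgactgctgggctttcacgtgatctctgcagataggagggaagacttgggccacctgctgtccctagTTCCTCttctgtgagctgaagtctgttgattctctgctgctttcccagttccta
The *P2ry12* window holds GGAAGT, the *P2ry13* window GAGGAA, and the *Siglech* window both, without overlap, while the *Cx3cr1* window holds neither. Of all 32851 promoter windows, 28.3% hold GAGGAA, 23.8% hold GGAAGT and 43.4% hold at least 1 of them. RefSeq windows were found for 6 of the 9 genes, 8 windows in all, since *Sall1* has several. Of these 8 windows, 4 hold at least 1 of the motifs, those of *P2ry12*, *P2ry13* and *Siglech* and 1 of *Sall1*. The match is a description of the letters and not a mapped site. *Gpr34*, *Tmem119* and *Selplg* had no entry in the set of windows used here.

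Nu-NB had 1519323 UMIs in total, the other samples had between 1294068 and 8410580, and 14626 cells remained after filters on detected genes, mitochondrial UMIs and likely doublets. Cells were clustered without the 9 genes and named from lists of markers, hence the ending "-like". Of these cells, 4314 were myeloid-like, and 3709 of them lay in microglia-like sub-clusters. A sub-cluster of 203 of these cells was led by genes of the cell cycle. All 6 microglia markers used, such as *Fcrls* and *Sparc*, were detected in them, but also in border-associated macrophage-like cells and in an unnamed sub-cluster of 220 cells. The name further required most of these markers to be not far below their median over sub-clusters. Leading genes also had to hold fewer markers of another class than of myeloid cells, or none, leaving aside neutrophil, dendritic and cycling markers. Clusters with myeloid markers and markers of another class were left out. They held 0.338% of the cells in Nu-NB, 0.387% in P8 and up to 19.8% in T233 (median of the 7 PDOXs 9.85%). Nu-NB and P8, the FACS-sorted samples, are also named by an older symbol release, so that sort and symbol release cannot be told apart. Between Nu-NB and the MACS-purified PDOXs, both differ along with the absence of a tumor. P8 shares both with Nu-NB but carries a tumor. Samples shared at most 11 cell barcodes (T192 and T16), 5 of them among cells that passed the filters.

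In myeloid-like cells, all 9 genes were lower in each of the 7 untreated PDOXs than in Nu-NB. Levels are UMIs per 10000 UMIs of the symbols listed in every file, summed over the myeloid-like cells of a sample. *P2ry12* was at 39.1 in Nu-NB, and at 8.85 in P8, 4.18 in T101, 7.17 in T192, 6.86 in T233, 9.17 in P3, 21.2 in T16 and 12 in P13. The highest PDOX was T16 and the lowest T101, a 5.07-fold range, and Nu-NB was still 1.85-fold above T16. Of the myeloid-like cells of T101, 22.0% were microglia-like, a share that depends on how sub-clusters were named. In microglia-like cells alone T101, at 8.47 from 51 UMIs (95% Poisson interval 6.31 to 11.1), could not be separated from T192 (7.25) and T233 (6.86). In myeloid-like cells, from 113 UMIs, the 95% Poisson interval of T101 was 3.45 to 5.03 and did not reach that of T192, at 6.84 to 7.50. The intervals of T192 and T233 overlapped, as did those of P8 and P3.

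For *P2ry13*, the neighboring nucleotide receptor, the level was 8.48 in Nu-NB, and 1.95 in P8, 1.33 in T101, 1.64 in T192, 1.43 in T233, 1.16 in P3, 2.14 in T16 and 2.26 in P13. This was the narrowest range between PDOXs of the 9 genes, 1.94-fold, and the widest gap to the brain, with Nu-NB 3.76-fold above the highest PDOX. *Gpr34* was at 23.3 in Nu-NB, and at 5.96 in P8, 1.22 in T101, 4.56 in T192, 6.15 in T233, 5.51 in P3, 10.9 in T16 and 6.26 in P13. T16 was again the highest and T101 the lowest, an 8.90-fold range that rested on T101, where the next PDOX stood at 4.56. In microglia-like cells *Gpr34* was at 2.49 in T101 and 11.9 in T16.

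*Cx3cr1* was at 65.3 in Nu-NB, and at 25.5 in P8, 12.1 in T101, 19.8 in T192, 18.3 in T233, 12 in P3, 29.6 in T16 and 25.1 in P13. P3 and T101 were the lowest, with overlapping intervals, and T16 came closest to the brain, which was 2.20-fold above it. *Tmem119* was at 8.63 in Nu-NB and between 0.840 in T233 and 3.34 in P13 (median 1.89). T192, of the same patient as T233, stood at 1.90, more than its sister model. *Siglech* was at 18.4 in Nu-NB and between 5.80 in T233 and 13.1 in T16 (median 7.27), and T192, at 12.3, was close to T16. The brain was 1.41-fold above T16, the smallest gap of the 9 genes.

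*Selplg* was at 12.6 in Nu-NB, at 2.0 in T101 and between 5.24 in T233 and 7.87 in T16 in the other 6 PDOXs. *Sall1*, the transcription factor, had few UMIs. It was at 3.29 in Nu-NB, at 1.45 in T16 and between 0.430 in P3 and 0.794 in P13 in the other PDOXs. *Olfml3* was at 8.55 in Nu-NB and between 1.11 in T101 and 4.68 in T192 (median 3.67). No PDOX overlapped with the brain for any of the 9, whereas 20.6% of the 9195 genes tested lay below the brain in 7 of 7 PDOXs after TMM scaling.

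**Figure D1:**
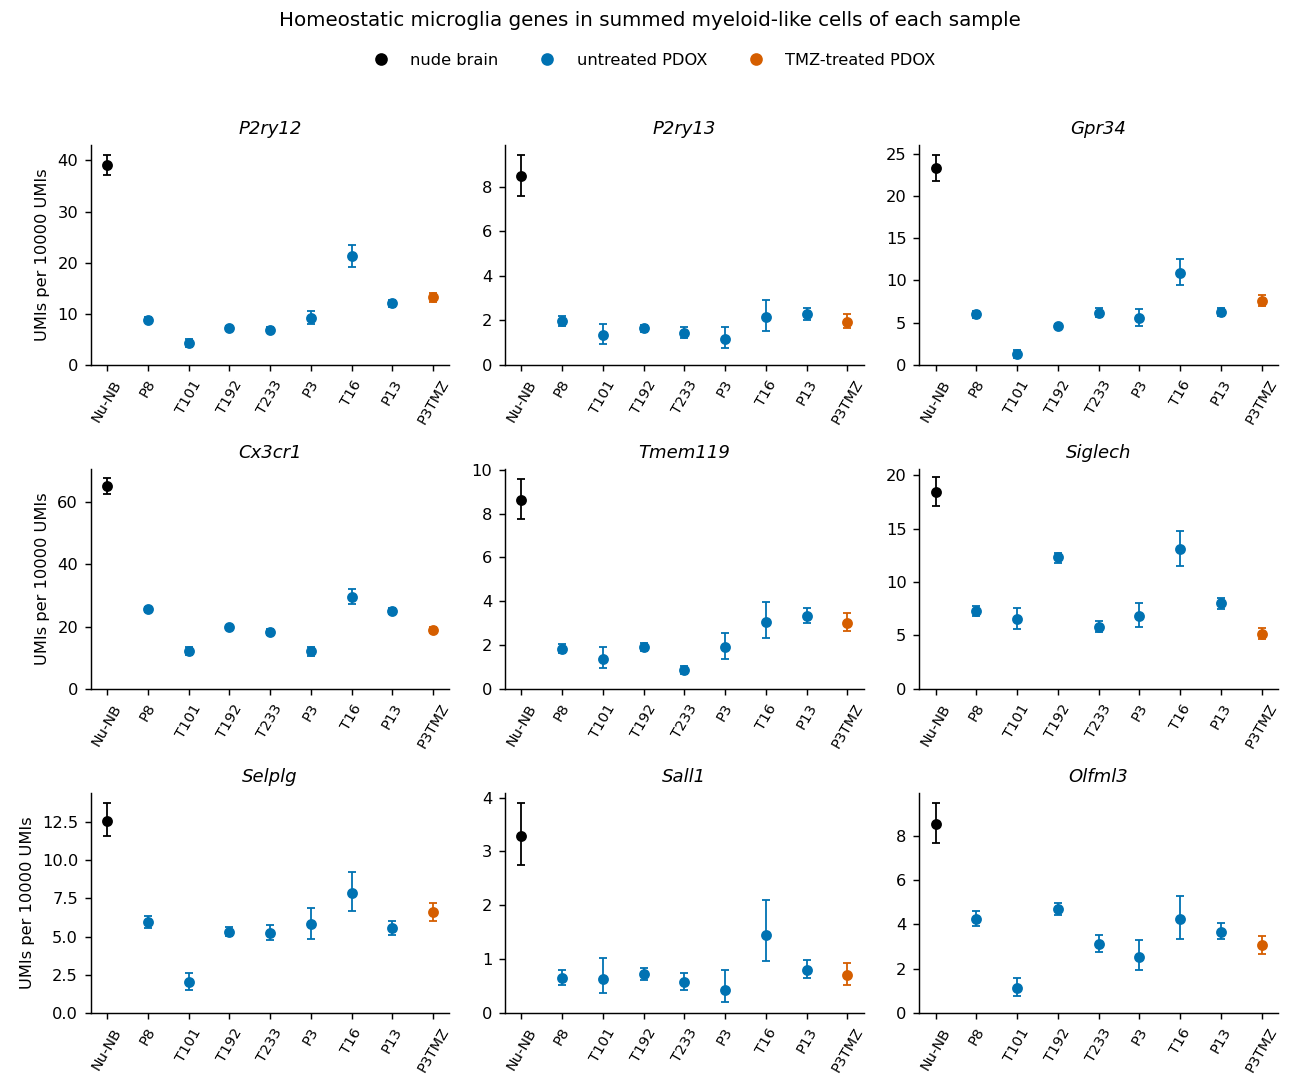
Level of each of the 9 genes (vertical axis, UMIs per 10000 UMIs, with 95% Poisson intervals that cover counting error only) in the summed myeloid-like cells of each sample (horizontal axis), in black for Nu-NB, blue for untreated PDOXs and orange for P3TMZ. The Nu-NB point is the highest in all 9 panels, and for *P2ry12* the PDOXs lie between 4.18 and 21.2 against 39.1.

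The summed UMIs of the 7 untreated PDOXs and of Nu-NB entered edgeR's quasi-likelihood test, where a gene was called at FDR of at most 0.01 and a log2 fold change (log2FC) of at least 1 in either direction. Since the brain was measured once, its spread was assumed to equal that among PDOXs. Called genes were 0 of 9195 (0%) by edgeR, and so 0 of the 9, although 1733 genes (18.8%) had an unadjusted p of at most 0.05, 7 of the 9 among them. DESeq2 called 161 of the 4695 genes to which it gave an adjusted p, 135 higher and 26 lower (0.554% lower), with *P2ry13* and *Sall1* among the lower. The median log2FC was -1.76 over the 9 genes and 0.07 over all genes tested. TMM scaling moved Nu-NB by 0.30 on the log2 scale against the PDOXs, so that the fitted differences are smaller than the ratios of the levels above.

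Of the receptors, *P2ry13* had a log2FC of -2.10 (standard error, SE, 0.339, FDR = 0.0823 by edgeR and 1.51e-05 by DESeq2), with PDOXs at 1.70 ± 0.422 (SD, n = 7). *P2ry12* had a log2FC of -1.76 (SE 0.556, FDR = 0.146 by edgeR), with PDOXs at 9.92 ± 5.52 (SD, n = 7), and *Gpr34* one of -1.78 (SE 0.608, FDR = 0.157 by edgeR). For *Cx3cr1* the log2FC was -1.47 (SE 0.453, FDR = 0.139 by edgeR), with PDOXs at 20.3 ± 6.81 (SD, n = 7). Thus the 4 receptors did not pass the threshold of edgeR, and *P2ry13* passed that of DESeq2.

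*Sall1* had a log2FC of -1.96 (SE 0.419, FDR = 0.105 by edgeR and 0.00379 by DESeq2), with PDOXs at 0.746 ± 0.329 (SD, n = 7). *Tmem119* had a log2FC of -1.88 (SE 0.473, FDR = 0.113 by edgeR and 0.0216 by DESeq2). The values were smaller for *Olfml3*, -1.12 (SE 0.506), *Selplg*, -1.0 (SE 0.492), and *Siglech*, -0.89 (SE 0.445), whose FDR by edgeR lay between 0.256 and 0.298. *Siglech* and *Selplg* were the 2 genes with an unadjusted p above 0.05.

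The count of called genes depended on P8. Without it, edgeR called 41 genes, *P2ry13* among them (log2FC -2.11), and 0 to 4 without any other single PDOX. P8, the FACS-sorted PDOX, was also compared with the other 6. Of 9542 genes, 58 (0.608%) were called at FDR of at most 0.05 by edgeR, and 0 of the 9, which held by DESeq2 and at an unadjusted p of at most 0.05. Their log2FC lay between -0.34 for *Siglech* and 0.32 for *Cx3cr1*. With 1 sample against 6 the 95% intervals were wide, from -1.55 to 1.04 for *P2ry12* and from -0.64 to 0.95 for *P2ry13*. P8 shares the sort and symbol release of Nu-NB, and each of the 9 genes was lower in P8. *P2ry12* was at 8.85 in P8 against 39.1 in Nu-NB, and *Olfml3* at 4.24 against 8.55. These are single samples of different animals, and the part of the sort in the difference from the brain was not tested.

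Other markers also moved in the myeloid-like cells. Nu-NB had a summed level of 9.5 for 7 monocyte markers, and the PDOXs one of 17.3 to 48.6, above the brain in 7 of 7. Those of 9 endothelial markers (0.324 against 1.55 to 4.19) and 5 markers of oligodendrocyte precursor cells (OPCs; 0.0748 against 0.714 to 3.27) lay above it in 7 of 7 as well. Those of oligodendrocytes (1.55 against 0.603 to 1.29) and the neutrophil marker listed (4.34 against 0 to 3.37) lay below it in 7 of 7. Astrocyte markers (13.5 against 1.12 to 14.6) and border-associated macrophage markers (10.2 against 1.11 to 14.5) lay above it in 1 of 7 each. Of the monocyte markers, 0 were at 0 in Nu-NB, and at most 2 in a PDOX. Their sum was 48.6 in both T101 and T233, where 22.0% and 99.2% of the myeloid-like cells were microglia-like. *Lyz2*, a gene of this list, was also among the leading genes of myeloid-like clusters led by *Ccl6* and *Spp1*. The microglia-like share of the myeloid-like cells was 92.6% in Nu-NB, 22.0% in T101 and 81.6 to 99.2% in the other 6 untreated PDOXs. The share in T101 depends on the naming rule, which left many of its cells in unnamed sub-clusters. A cell of Nu-NB held a median of 472 UMIs, one of the PDOXs 556 to 1138. With microglia-like cells only, the log2FC was -1.70 for *P2ry12*, -2.05 for *P2ry13*, -1.75 for *Gpr34*, -1.43 for *Cx3cr1*, -1.87 for *Tmem119*, -0.88 for *Siglech*, -0.99 for *Selplg*, -1.96 for *Sall1* and -1.01 for *Olfml3*. In these cells *P2ry12* was at 42.5 in Nu-NB and 6.86 to 23.4 in PDOXs, and at 500 UMIs it was found in 81.8% and 22.3 to 62.3% of them. Which cells gave the transcripts of these markers, and their part in the levels of the 9 genes, was not tested.

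At equal depth, a smaller share of the myeloid-like cells of PDOXs held a transcript of each gene. Cells under 500 UMIs were left out and the others thinned to 500 UMIs, so that the share of cells with a UMI can be compared. *P2ry12* was found in 76.5% of the myeloid-like cells of Nu-NB (exact 95% interval 71.4 to 81.1%), and in 32.4% in P8, 14.3% in T101, 23.8% in T192, 22.4% in T233, 30.7% in P3, 55.6% in T16 and 43.0% in P13. *Cx3cr1* was found in 91.7% in Nu-NB and in 40.6 to 67.6% in the PDOXs (mean 55.1% ± 11.3, SD, n = 7). All 9 genes lay below the brain in 7 of 7 PDOXs, as did 22.5% of all genes tested.

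The shares of the other members were ordered likewise. *Gpr34* was found in 61.0% in Nu-NB and 25.9% ± 10.3 (SD, n = 7) in PDOXs, *Siglech* in 55.6% and 31.5% ± 8.51, *Selplg* in 42.9% and 24.9% ± 7.80, and *Tmem119* in 32.4% and 8.52% ± 4.85. For *Olfml3* the shares were 30.5% and 13.9% ± 6.35, for *P2ry13* 29.2% and 8.96% ± 3.07, and for *Sall1* 13.7% and 4.24% ± 3.0. The exact two-sided permutation test of 7 samples against 1 gave p = 0.125 for 8 genes, the smallest that it allows, and p = 0.250 for *Selplg*, so the design cannot reach 0.05. Without thinning, 5 of the 9 genes lay below the brain in 7 of 7 PDOXs, and *Siglech* did so in 4 of 7.

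In single microglia-like cells the genes were found together in the brain and thinly in the tumors. At 500 UMIs, 91.8% of 291 such cells of Nu-NB held at least 3 of the 9 genes and 53.6% held 5 or more, with a median of 5. In PDOXs, cells with at least 3 were 40.2% in P8, 25.6% in T101, 35.5% in T192, 20.7% in T233, 28.6% in P3, 63.2% in T16 and 58.3% in P13. None of the 9 was found in 1.03% of the cells of Nu-NB and in 1.75% in T16, 6.13% in P13 and 9.77 to 23.1% in the other 5. T16 and P13 stood closest to the brain by both shares. T233 had the lowest share of cells with at least 3 genes, and T101 the highest share with none.

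**Figure D2:**
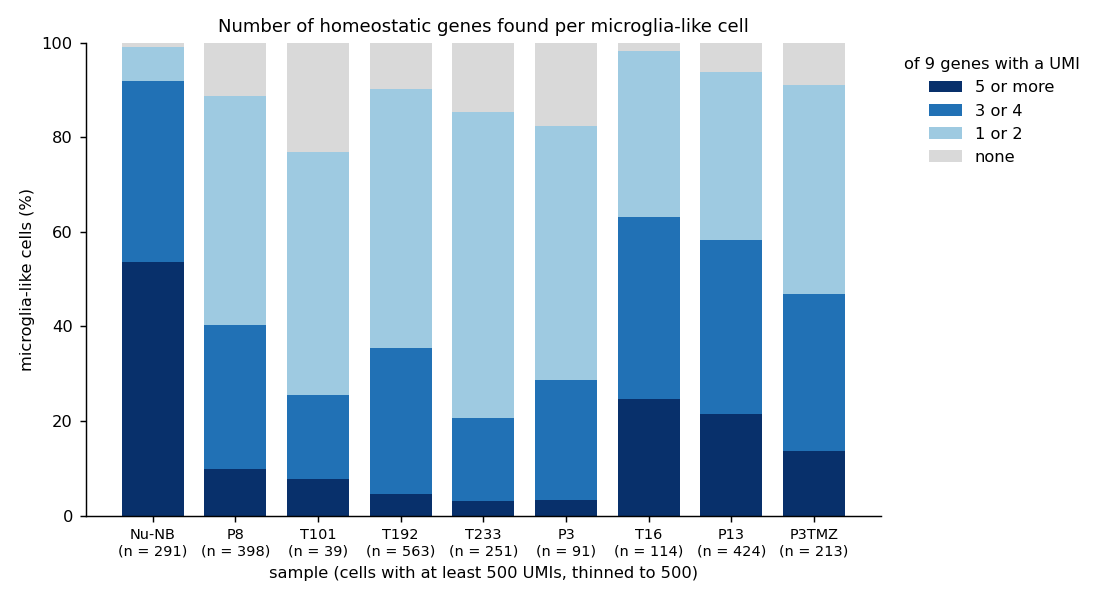
Share of microglia-like cells (vertical axis, percent) in which none, 1 or 2, 3 or 4, or at least 5 of the 9 genes had a UMI, by sample (horizontal axis, number of cells below each name), with every cell thinned to 500 UMIs. Cells with 5 or more are 53.6% in Nu-NB and 3.19 to 24.6% in the untreated PDOXs.

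Sub-clusters of microglia-like cells divided the samples in the same way. They were made without the 9 genes, but were singled out after their values had been seen, so their levels are a description. The clustering was not corrected for differences between samples, so that sample and cell state cannot be told apart in it. One sub-cluster held 96.3% of the microglia-like cells of Nu-NB (617 of 641) and 0.671% in P3 to 38.2% in T16 in the PDOXs, with a median of 10.7%. The summed level of the 9 genes in it was 207 in Nu-NB, and 155 in P8, 67.9 in T192, 149 in T16 and 155 in P13, the 4 PDOXs with at least 10 such cells. Another, with 10 cells of Nu-NB, held 0.354 to 29.6% of the microglia-like cells of PDOXs, with summed levels of 96.0 to 138 in the 6 PDOXs with at least 10 such cells and 127 in Nu-NB, above 3 of the 6. *P2ry12* in it was at 18.6 in Nu-NB and 20.9 to 44.1 in these PDOXs, below the brain in 0 of 6. The 10 cells of Nu-NB are too few to read a direction from this. In the remaining microglia-like cells, which were 34.0% in T16 and 47.7 to 94.7% in the other untreated PDOXs, the sum was 36.2 to 72.2, against 99.5 in 14 cells of Nu-NB. Among these cells *Siglech* was at 4.83 in the 14 cells of Nu-NB and 5.74 to 12.3 in PDOXs. *Selplg* was at 2.90 and 1.83 to 5.68, below the brain in 1 of 7. These brain values rest on few UMIs, so no direction is read from them. In the first sub-cluster, *Siglech* was at 20.7 in Nu-NB against 18.0 to 20.4 in these 4 PDOXs, whereas *P2ry13* was at 9.34 against 1.70 to 6.97 and *Cx3cr1* at 71.1 against 22.9 to 52.8.

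The 9 genes were also measured in the other myeloid-like cells. Over all samples, 256 monocyte-like cells had *P2ry12* at 0.759 and *Cx3cr1* at 6.74, against 11.1 and 24.3 in microglia-like cells. In 88 border-associated macrophage-like cells, the macrophages of meninges and vessels, *P2ry12* was at 1.77, *Tmem119* at 0.296 (2 UMIs) and *Sall1* at 0.148 (1 UMI). *Cx3cr1* was at 22.8 in those of Nu-NB (26 cells, 41 UMIs), 5.17 in those of T16 and 5.82 in those of P13, and at 11.4 over all samples. *Sall1* had 1 UMI in the monocyte-like cells. *Cx3cr1*, which monocytes and other macrophages are also known to carry, was the member with the highest share in both, in 22.8% of monocyte-like and 31.7% of border-associated macrophage-like cells at 500 UMIs. A further 261 myeloid-like cells, 165 of them in T101, lay in sub-clusters without a name. The larger sub-cluster, with 220 cells, had all 6 microglia markers detected. It missed the microglia-like name through 1 leading gene, *Ccl5*, which was listed as a lymphocyte marker. They had *P2ry12* at 5.87, *Siglech* at 6.99 and *Cx3cr1* at 14.6, and at 500 UMIs these were found in 19.7%, 24.9% and 50.9% of them. Within T101, these cells and the microglia-like cells had overlapping Poisson intervals for *Siglech* (8.03 and 8.47), *Tmem119* (1.92 and 1.66) and *Sall1* (0.884 and 0.664). For *P2ry12* the intervals did not overlap, and the unnamed cells were lower.

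Outside the myeloid-like class the genes were found in few cells. At 500 UMIs *P2ry12* was found in 37.8% of myeloid-like cells, 3.0% of astrocyte-like cells, 1.03% of endothelial-like cells and 2.12% of OPC-like cells, from median depths of 682, 627, 642 and 674 UMIs before thinning. *Gpr34* was found in 30.1%, 1.52%, 0.221% and 0.909% of the same classes, and *Tmem119* in 12.7%, 0.885%, 0.147% and 0.152%. Endothelial cells are not known to make *P2ry12*, *Gpr34* or *Tmem119*. Among 80 ciliated ependymal-like cells the shares were higher, with *P2ry12* and *Cx3cr1* in 11.2% each and *Sall1* in 5.0%.

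**Figure D3:**
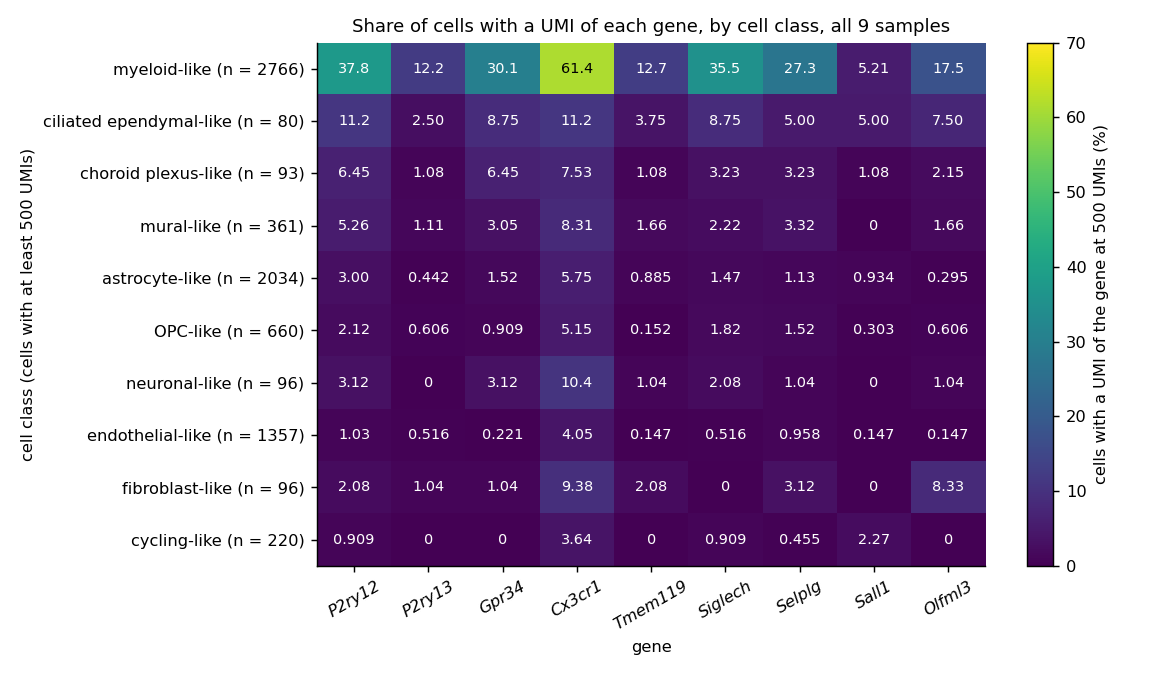
Percent of cells with a UMI of each gene (columns) in each cell class (rows, with the number of cells), over all 9 samples with every cell thinned to 500 UMIs, printed in each field and shown by color. The myeloid-like row is the highest for all 9 genes, from 5.21% for *Sall1* to 61.4% for *Cx3cr1*.

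Within samples, the summed level of the 9 genes in astrocyte-like cells was a median of 7.18% of that in the myeloid-like cells of the same sample (8 samples), and that of the myeloid markers 4.38%. In endothelial-like cells the medians were 2.42% and 2.21% (9 samples), in OPC-like cells 12% and 7.96% (7 samples) and in mural-like cells 13.4% and 8.08% (9 samples). *Sall1*, which neural cells are known to express early in life, had a median of 15.8% in astrocyte-like cells, with 15 UMIs each in Nu-NB and P13. Its share there, 0.934%, was above that in endothelial-like cells, 0.147%. *Olfml3* was found in 8.33% of 96 fibroblast-like cells and 17.5% of myeloid-like cells. RNA from lysed cells gives UMIs in cells that do not express a gene, and its part in these values was not tested.

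Within PDOXs, cells with and without a transcript of *Spp1* were compared, so that each PDOX served as its own control and the single brain was not used. *Spp1* encodes osteopontin, which activated microglia and macrophages secrete. At 500 UMIs it was found in 0.317% of myeloid-like cells of Nu-NB and in 77.8% in P8, 35.7% in T101, 64.9% in T192, 85.4% in T233, 75.2% in P3, 24.4% in T16 and 19.6% in P13. UMIs were summed per PDOX over cells with and without *Spp1* and compared by edgeR with the PDOX as a block, leaving out *Spp1* itself. Of 731 genes that passed the low-count filter, 56 were called at FDR of at most 0.05, 41 higher and 15 lower (2.05% lower).

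*P2ry12*, *Gpr34* and *Selplg* were lower in cells with *Spp1*. *P2ry12* was at 7.61 with and 22.2 without *Spp1* in P8, 2.95 and 4.44 in T101, 6.07 and 6.83 in T192, 5.87 and 22.7 in T233, 7.24 and 17.6 in P3, 12.3 and 23.7 in T16, and 7.31 and 19.1 in P13. It was lower in 7 of 7 PDOXs, with a log2FC of -1.2 (SE 0.172, FDR = 1.60e-05 by edgeR), and least so in T192 and T101. *Gpr34* was lower in 6 of 7, at medians of 5.96 and 9.93, with a log2FC of -0.86 (SE 0.167, FDR = 9.93e-04 by edgeR). That call held in 11 of 14 settings. It was lost with no filter on low counts, with cells split by *Cst7* instead, and without the replicate block. *Selplg* was lower in 5 of 7, with a log2FC of -0.63 (SE 0.180, FDR = 0.0273 by edgeR), a call that was lost with DESeq2 (FDR = 0.0986) and without any of P8, T233, P3, T16 or P13.

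The other members tested were not called. *Siglech* had a log2FC of -0.49 (SE 0.168, FDR = 0.0696 by edgeR), *Olfml3* of -0.35 (SE 0.214, FDR = 0.354) and *Cx3cr1* of -0.27 (SE 0.160, FDR = 0.325), with a 95% interval of -0.59 to 0.04. *P2ry13*, *Tmem119* and *Sall1* did not pass the low-count filter. EdgeR called *Tmem119* without T192 and in no other setting, also not with no filter on low counts, where all 9 were tested. Summed over the PDOXs, *P2ry13* had 94 UMIs with and 146 without *Spp1* and *Tmem119* 84 and 161. In T101, 39 of the 210 cells at 500 UMIs lay in microglia-like sub-clusters. With microglia-like cells only, edgeR called 6 of the 7 members tested, with 34 of 564 genes (6.03%) lower: *P2ry12* (log2FC -1.38), *P2ry13* (-0.86), *Gpr34* (-0.97), *Cx3cr1* (-0.51), *Siglech* (-0.70) and *Selplg* (-0.83). Splitting by *Cst7*, a protease inhibitor of activated microglia, edgeR called *P2ry12* alone of the members (log2FC -0.60).

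**Figure D4:**
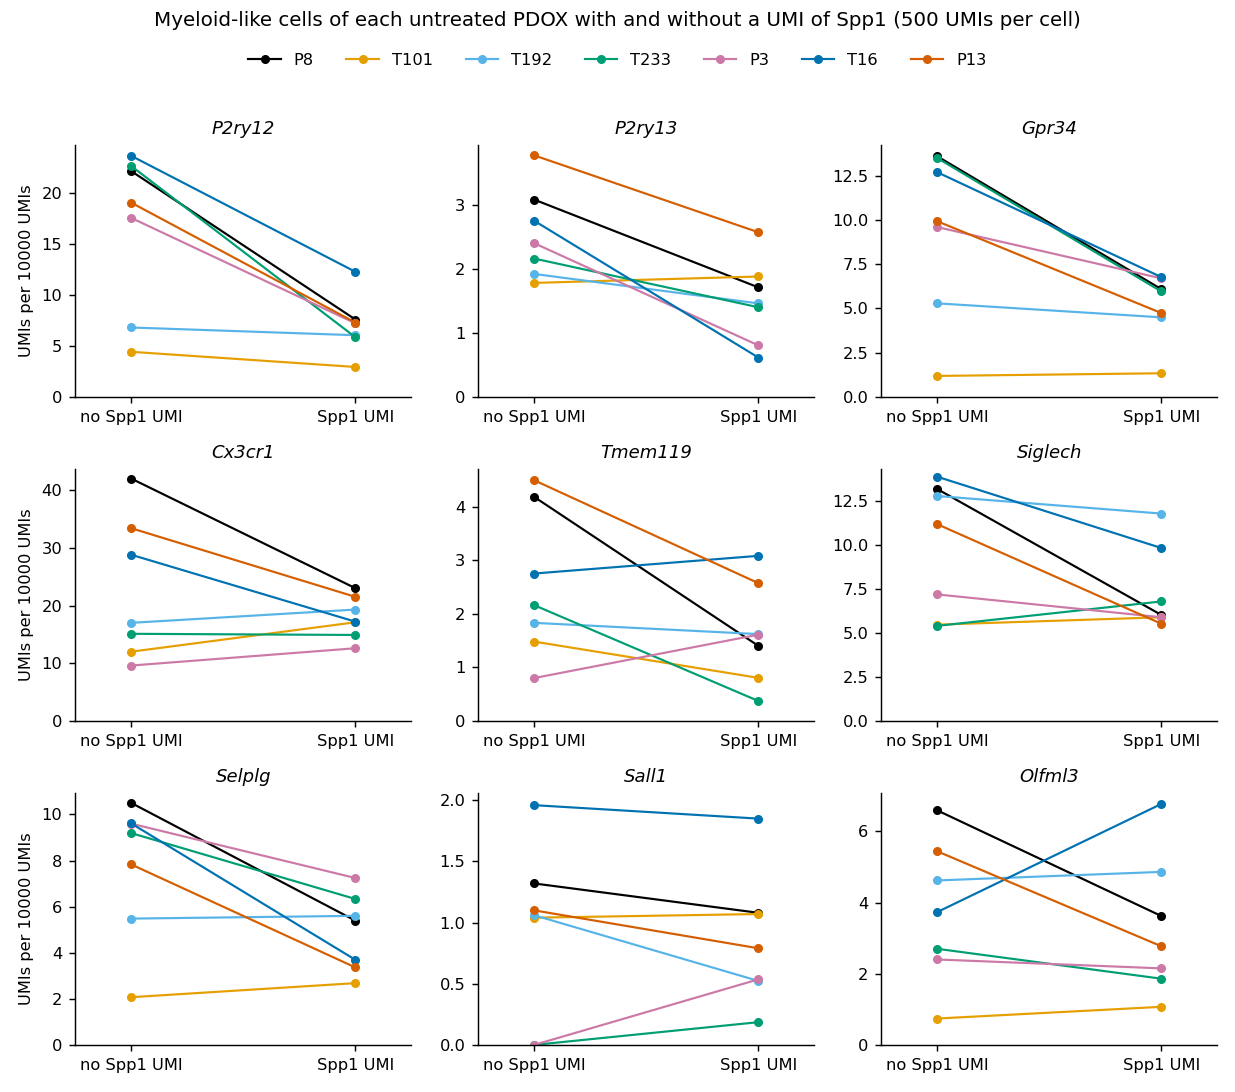
Level of each gene (vertical axis, UMIs per 10000 UMIs) in myeloid-like cells without (left) and with (right) a UMI of *Spp1*, every cell thinned to 500 UMIs, with 1 line for each untreated PDOX. For *P2ry12* all 7 lines fall to the right, with medians of 19.1 and 7.24, whereas for *Cx3cr1* 4 of 7 do.

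The 41 genes that were higher in cells with *Spp1* included genes of activated microglia. Of 14 such genes tested, 11 were called, 0 of them lower, against 56 of all 731 genes tested. Examples are *Ccl6* (log2FC 1.46), *Lpl* (1.45), *Itgax* (1.32) and *Cst7* (1.11). The list was chosen with earlier results of these data known and is not independent evidence of a direction.

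After TMZ, 8 of the 9 genes had a higher level in P3TMZ than in P3, where 50.7% of the 7523 genes compared did. This sets 1 sample against 1, so there is no test, and intervals cover counting error only. *P2ry12* was at 9.17 in P3 and 13.2 in P3TMZ (ratio 1.44, 95% interval 1.24 to 1.68), *Cx3cr1* at 12 and 18.8 (1.57, 1.38 to 1.79) and *Gpr34* at 5.51 and 7.54 (1.37, 1.13 to 1.67). *Tmem119* was at 1.89 and 3.02 (1.60, 1.15 to 2.26) and *P2ry13* at 1.16 and 1.94 (1.67, 1.10 to 2.62). The intervals of *Selplg* (1.13, 0.934 to 1.38), *Olfml3* (1.2, 0.897 to 1.63) and *Sall1* (1.62, 0.812 to 3.59) include 1.

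*Siglech* was the exception, at 6.84 in P3 and 5.15 in P3TMZ (ratio 0.752, 0.622 to 0.912). In cells thinned to 500 UMIs its ratio was 1.12 (0.730 to 1.76), and those of *P2ry12* and *Tmem119* were 2.13 and 3.56. P3TMZ lay inside the range of the 7 untreated PDOXs for 8 of the 9 genes, and below it for *Siglech*. It lay below Nu-NB for all 9, with at least 3 of the genes in 46.9% of its microglia-like cells. Other markers differed between the myeloid-like cells of P3 and P3TMZ as well. The summed level of monocyte markers was 46.1 in P3 and 22.6 in P3TMZ, that of mural markers 3.53 and 0.570, and that of cycling markers 2.45 and 5.79. Microglia-like cells were 90.3% and 93.5% of the myeloid-like cells. Median UMIs per cell were 691 and 920.5, and the part of these differences in the ratios was not tested.

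**Figure D5:**
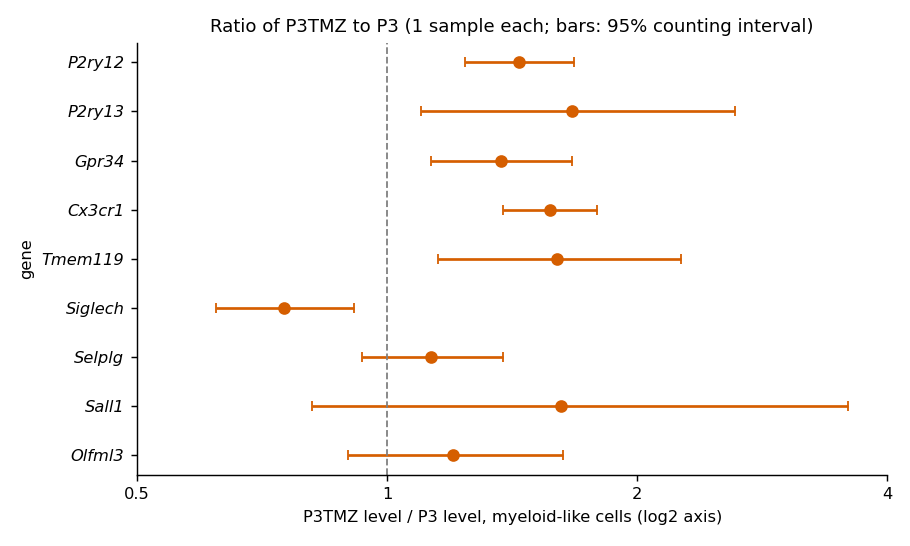
Ratio of the level in P3TMZ to that in P3 (horizontal axis, log2 scale, 1 sample each) for each gene (vertical axis) in myeloid-like cells, with 95% counting intervals. The intervals of *P2ry12*, *P2ry13*, *Gpr34*, *Cx3cr1* and *Tmem119* lie above 1, that of *Siglech* lies below 1 and those of *Selplg*, *Sall1* and *Olfml3* include 1.

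Other homeostatic genes of microglia were compared in the same way. Of 34 such genes tested in the comparison of PDOXs with Nu-NB, 18 (52.9%, against 20.6% of all genes tested) lay below the brain in 7 of 7 PDOXs and 1 (2.94%, against 21.8%) above it in 7 of 7, with a median log2FC of -0.60. EdgeR called 0, and 11 of the 34 had an unadjusted p of at most 0.05, all lower, where 18.8% of all genes tested did in either direction. DESeq2 called *Entpd1* and *Hpgds*, both lower. *Entpd1*, which breaks down extracellular ATP and so acts on the ligands of *P2ry12* and *P2ry13*, was at 10.6 in Nu-NB and 0.99 to 2.89 in PDOXs (log2FC -2.30, SE 0.399, FDR = 0.0851 by edgeR). *Slc2a5*, a fructose transporter, was at 1.05 and 0.0370 to 0.357 (log2FC -2.21) and *Crybb1* at 0.873 and 0.0274 to 0.821 (log2FC -1.62). *Fcrls* went the other way, at 0.823 and 0.333 to 4.41 (log2FC 1.75, FDR = 0.331), below the brain in 1 of 7.

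Of 12 transcription factors of microglia, 3 (25.0%) lay below the brain in 7 of 7 PDOXs, close to the 20.6% of all genes tested, and 0 above. The median log2FC was -0.40, and neither edgeR nor DESeq2 called any. Of the 12, 2 had an unadjusted p of at most 0.05, near the 18.8% of all genes tested. *Maf* was at 16.6 in Nu-NB and 1.90 to 9.48 in PDOXs (log2FC -1.86), and *Sall3*, a relative of *Sall1*, at 2.24 and 0.185 to 1.27 (log2FC -1.53). *Mef2a* (log2FC -0.78) and *Mef2c* (-0.42) were closer to the brain, and *Spi1*, which encodes PU.1, was at 2.27 in Nu-NB and 1.86 to 2.70 in PDOXs.

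Genes of activated microglia lay on the other side. Of 18 tested, 16 (88.9%) were above the brain in 7 of 7 PDOXs, against 21.8% of all genes tested, with a median log2FC of 4.56. DESeq2 called 11, all higher, where edgeR called 0. Of the 18, 15 had an unadjusted p of at most 0.05, against 18.8% of all genes tested. *Spp1* was at 0.20 in Nu-NB (8 UMIs) and 13.9 to 141 in PDOXs (log2FC 8.62), and *Cxcl13*, a chemokine, at 0.574 and 8.89 to 48.2 (log2FC 6.18). *Fn1*, which encodes fibronectin, had 0 UMIs in Nu-NB and 0.535 to 7.61 in PDOXs, at the median at least 75.9-fold higher against a floor of 3 UMIs in the brain. *Ch25h* had 1 UMI in Nu-NB and was at 0.592 to 8.13 in PDOXs.

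Genes induced by tissue dissociation were read beside these, since enzymatic digestion can activate microglia. Their summed level was 94.8 in Nu-NB and 44.9 to 124 in PDOXs, with P8 the lowest. Of 15 tested, 6 (40.0%) were above and 2 (13.3%) below the brain in 7 of 7 PDOXs, against 21.8% and 20.6% of all genes tested, with a median log2FC of 0.72. EdgeR called 0, and 3 of the 15 had an unadjusted p of at most 0.05, near the 18.8% of all genes tested. DESeq2 called *Atf3* and *Rgs1* as higher and *Jund* as lower. The log2FC was 2.49 for *Atf3*, 2.13 for *Rgs1*, 1.79 for *Klf2* and 4.52 for *Hspa1a*, which had 1 UMI in Nu-NB, and it was -1.75 for *Jund* and -0.77 for *Jun*, both below the brain in 7 of 7 PDOXs. Their part in the levels of the 9 genes was not tested.

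The ligands and partners of the products of these genes were spread over cell classes. *Cx3cl1*, the ligand of CX3CR1, had its highest level, 0.650 per 10000 UMIs, in ciliated ependymal-like cells (11 UMIs), followed by 0.482 in neuronal-like cells (6 UMIs). *Sele*, whose product binds SELPLG, was found at 0.243 in endothelial-like cells and had 3 UMIs in all myeloid-like cells. *Il34* and *Csf1*, the ligands of CSF1R on which microglia depend, were at 1.54 in mural-like cells and 2.18 in myeloid-like cells over all samples. For *Csf1* the median over samples was 1.07 in myeloid-like cells and 1.35 in fibroblast-like cells, so that no class stood out. In myeloid-like cells, *Csf1* was at 0.224 in Nu-NB (9 UMIs) and between 0.624 and 4.88 in PDOXs, with a log2FC of 3.42 (SE 1.24, FDR = 0.175 by edgeR). *Tgfb1*, on which the homeostatic state depends, was at 2.22 in Nu-NB and 0.963 to 3.34 in PDOXs (log2FC -0.17, SE 0.581), and *Nrros*, which holds TGF-beta on microglia, at 0.873 and 0.259 to 0.844 (log2FC -0.21, SE 0.464). *Lrrc32*, which holds it on other cells, was highest in mural-like cells (1.08).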

How the data were processed

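Mouse cells of 9 Drop-seq samples were measured, 1 normal brain, 7 untreated PDOXs and P3TMZ, taken from the labels. The authors deposited UMI count tables of genes by cells, made with bcl2fastq 2.0 and STAR on mm10/GRCm38 per the submitters' processing notes. These counts are not normalized. Cells under 200 genes or over 30% mitochondrial UMIs were left out, as were likely doublets, the top 5% by scrublet score. The rest were clustered without the 9 genes and without genes found in under 5 cells (scanpy 1.11.5, leidenalg 0.10.2, Python 3.11.15; 2000 variable genes, 30 components, 20 neighbors, resolution 1, seed 1) and named from marker lists, by a naming rule completed after the clusters had been seen. No correction for differences between samples was made before clustering. The 9 genes and all lists were chosen with earlier results of these data known.

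UMIs were summed per sample, with at least 10 cells a sum, and tested across samples by edgeR 4.0.16 (R 4.3.3; quasi-likelihood, TMM scaling, filter on low counts, Benjamini-Hochberg adjustment over all genes tested), with DESeq2 1.42.0 as an alternative. Thresholds were FDR of at most 0.01 with a log2FC of at least 1 in size against the brain, and FDR of at most 0.05 elsewhere. Shares used cells thinned to 500 UMIs, exact binomial intervals and exact permutation tests (scipy 1.17.1). Levels carry 95% exact Poisson intervals, which cover counting error only, and fold bounds against 0 UMIs use a floor of 3 UMIs. The *Spp1* comparison was blocked by PDOX, as both cell sets come from the same animal. The fits were tested on simulated data. Genes outside the 9 were named by rule: up to 4 of each list with the largest log2FC in size among those at 50 CPM or more in the brain or the PDOXs, and the 10 genes most like the 9 across PDOXs. *Hpgds*, *Spi1*, *Jund*, *Jun* and the genes named in the *Spp1* comparison were named after their values were seen. Alternatives were other scaling, filters, depths, cell sets and single samples left out. Other models of the study and its culture data were not analysed here.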

Additional observations from a re-analysis of the deposited data

Results flagged for a closer look

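Within the 7 untreated PDOXs, 36 sets of values (levels and shares of the 9 genes) were searched for a sample far from the others by Dixon's criterion, and 4 met it, where chance gives about 1 in 20. *P2ry12* in microglia-like cells was highest in T16, at 23.4 UMIs per 10000, and the next PDOX stood at 13.2. *Sall1* was highest in T16 as well, at 1.45 in myeloid-like cells (next 0.794) and at 1.65 in microglia-like cells (next 0.876). *Selplg* was found in 9.05% of myeloid-like cells of T101 at 500 UMIs, against 23.4% in the next PDOX.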

How the results depend on the processing

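Against the brain, all 9 genes were lower in 18 of 18 settings, and the calls varied. DESeq2 called 2 of the 9 and 161 genes in all. Leaving out 1 PDOX gave 0 to 1 of the 9 and 0 to 41 genes, the highest without P8. With microglia-like cells only, with cells gated by markers, and with no doublet removal, edgeR called 1, 1 and 6 genes and 0 of the 9. In alternatives chosen after seeing the data, microglia-like cells gave 1 gene without T101, and 1 of the 9 and 63 genes without P8. Over the other gene lists, 0 were called by edgeR, 16 by DESeq2, 0 to 1 with a PDOX left out and 5 with microglia-like cells without P8. For P8 against the other PDOXs, DESeq2 called 98 genes where edgeR called 58.

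In the *Spp1* comparison, edgeR called 3 of the 6 members tested and 56 genes. Members called were 1 with no filter on low counts, 1 with the split by *Cst7* and 6 in microglia-like cells only. Genes called were 30 with DESeq2, 26 with no filter, 14 with *Cst7*, 29 at 800 UMIs and 24 to 59 with 1 PDOX left out, where 2 to 4 members were called, the most without T192. Both cell sets of a PDOX come from 1 animal, and without the replicate block 0 members and 0 genes were called. No paired analysis was possible because the other comparisons have 1 brain or single samples. Without thinning, 5 of 9 shares lay below the brain in 7 of 7 PDOXs. No called value changed sign, while that of *Cx3cr1* in the *Spp1* comparison, not called, was -0.27 at 500 and 0.05 at 800 UMIs. The causes were not tested.

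Depth limited *P2ry13*, *Tmem119* and *Sall1*, which were filtered out of the *Spp1* comparison. With 1 normal brain, differences between brains were not measured, and of the PDOXs P8 alone shares the FACS sort of that brain. Members with few UMIs in a class, such as *Sall1*, carry wide intervals.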

Other observations

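Across the 7 untreated PDOXs, the levels of the 9 genes in myeloid-like cells were compared pair by pair. Of 36 pairs, 36 had a Pearson r above 0, from 0.368 to 0.983 with a median of 0.649 (n = 7 PDOXs, which share the depth and makeup of each library between genes). Pairs of other genes were not compared. The mean of the standardized levels was lowest in T101 (-1.28), where 22.0% of the myeloid-like cells were microglia-like by the naming rule used, and highest in T16 (1.26). The part of that makeup in these r was not tested. Of 3264 genes ranked by their r with this mean, *Mfap3* (0.967), *Slco2b1* (0.960) and *Mef2a* (0.958) came first, followed by *Ehd4* (0.952), *Nav3* (0.951), *Tm9sf4* (0.949), *Fscn1* (0.94), *Skil* (0.939), *St3gal6* (0.938) and *Dock4* (0.934), each over n = 7 PDOXs. *Mef2a*, a transcription factor, and *Nav3* stand on the lists described above. These r are a description of 7 points.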
